A study of Bubalus bubalis with 6 samples.

Results

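Of the 14990 circRNAs detected in buffalo subcutaneous adipose tissue, 677 carried the note Published in the table of all circRNAs. The table does not explain the note, which is read here, from the text of the study, as marking back-spliced junctions already known from the muscle of cattle. The 677 were taken by that note alone, without use of their levels, and were compared with the 14313 circRNAs noted as new. The tissue came from Chinese buffaloes of the swamp type, called Xinyang buffalo in the labels, 3 young animals of 6 months and 3 adult animals of 30 months, raised on 1 farm under the same feeding, with 1 library from each animal. RNA was freed of rRNA while linear RNA was kept, so that circRNAs and the linear transcripts of their host genes were read in the same libraries. Neither group had been given a treatment, and age was the only labelled difference between them.

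A circRNA is formed when the end of an exon is joined back to the start of the same or an earlier exon, which leaves a closed loop without free ends. Such loops resist exonucleases and can build up in tissue even where their host gene is transcribed at a modest rate. In sequencing data they are recognised from reads that cross the back-spliced junction, which linear RNA of the same gene does not hold. Loops from one host gene often share one junction end and differ in the other.

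The libraries held 10745 to 17680 back-spliced reads. In the deposited table each library's back-spliced reads had been multiplied by a factor of its own, from 1.42 to 2.59, and put on a log2 scale after adding 1. These multiplied values are called scaled reads below. The young library of replicate 2 stood apart from the adult libraries more than the other young libraries did, with a Pearson's r of 0.141 to 0.183 over the 2834 circRNAs tested. circRNAs are named by chromosome, start and end on the cattle genome UMD3.1 as the table gives them, and whether the start counts from 0 or 1 was not stated.

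The published circRNAs were few but well covered. They made up 4.52% of all circRNAs and took 14728 of 83165 back-spliced reads (17.7%), with a median of 7 reads over the 6 libraries against 2 for new circRNAs. The share of circRNAs that were published was 1.52% (87 of 5718) among those with a single read, 5.70% (177 of 3107) at 4 to 10 reads, 15.4% (162 of 1051) at 11 to 30 reads and 40.3% (27 of 67) at over 100 reads. It was higher at each step of this scale and at each step in the number of libraries. The reads were unevenly spread among the published circRNAs, since the 10 with the most reads held 21.1% of them and the 120 found in all 6 libraries held 63.0%.

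**Figure D1:**
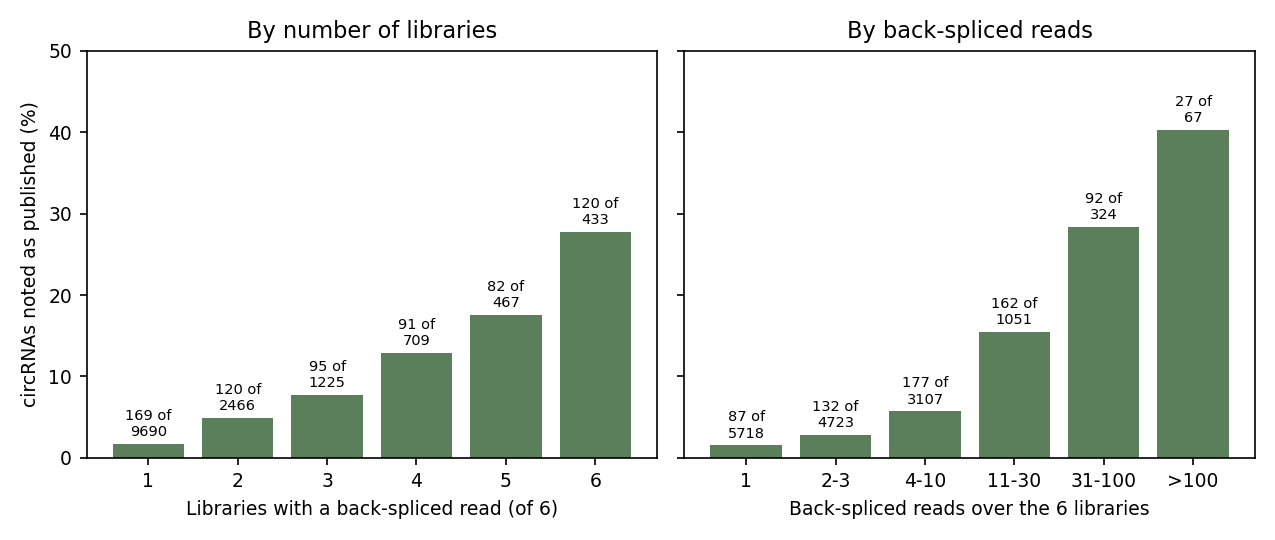
Percentage of circRNAs noted as published, by the number of libraries with a back-spliced read (left) and by the back-spliced reads over the 6 libraries (right), with the number published and the number of all circRNAs above each bar. The share climbs from 1.74% in 1 library to 27.7% in 6, and from 1.52% at 1 read to 40.3% above 100 reads.

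All 677 published circRNAs were of the exon type, against 90.9% of all circRNAs. They lay on 30 chromosomes, with 49 on chromosome 3 and 14 on chromosome X. The distance between the junction ends on the genome, introns included, had a median of 9684 bases (quartiles 3748 and 19040) against 11792.5 bases (4774.5 and 24853.5) for new exon circRNAs. Both quartiles and the median were lower for the published ones. Only 3 published circRNAs (0.443%) spanned more than 100 kb, from ATRX, ATE1 and SOX6, against 2.25% of new exon circRNAs, while spans under 1 kb were similarly frequent (5.32% and 5.18%). Among circRNAs found in all 6 libraries the medians were 8037.5 and 10185 bases. The published median was also the lower one among those found in 1, 2 or 3 libraries. Among those in 4 and in 5 libraries it was the higher one (10899 against 9393 and 11138.5 against 8855 bases). By reads, it was higher only at 31 to 100 reads (10633 against 8240 bases). The shorter span thus did not hold at every level of detection. These values describe the lists and were not tested.

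The published circRNAs came from 533 host genes, of which 427 gave 1, 80 gave 2 and 26 gave 3 or more. For 94 hosts the published circRNA was the only one in the table. The other 439 hosts also gave further loops, and in 288 of them a published circRNA had the most reads, ties included. Together these genes gave 3165 circRNAs with 28852 reads, and 51.0% of those reads fell on the 677 published ones. Within hosts of more than 1 circRNA, the share of the host's back-spliced reads on a published circRNA had a median of 30.3%, was at least 90% for 33 and under 10% for 140 of 583. A junction end was shared with another circRNA by 489 published circRNAs (72.2%) and by 68.8% of new exon circRNAs.

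MED17, which encodes a subunit of the Mediator complex, shows how such loops were arranged. Its published circRNA 29:1011931|1015558 had 212 reads and shared its end with a new one, 29:1009452|1015558, which had 677 reads and was the circRNA with the most reads in the whole table. Both were named here after their values had been seen.

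More published circRNAs were detected in each young than in each adult library, and so were more circRNAs in all. The published ones were 8.29% ± 0.252 (SD, n = 3) of the circRNAs detected in a young library and 8.69% ± 1.04 (SD, n = 3) in an adult library, with an exact permutation p of 0.8. Published circRNAs took 18.9% (95% Wilson interval 18.3 to 19.6), 15.7% (15.0 to 16.3) and 18.6% (18.1 to 19.2) of back-spliced reads in young libraries 1 to 3. In adult libraries 1 to 3 they took 17.8% (17.1 to 18.5), 16.8% (16.2 to 17.3) and 18.3% (17.6 to 19.1), and the groups overlapped. The means were 17.7% ± 1.81 (SD, n = 3) and 17.6% ± 0.792 (SD, n = 3), with an exact permutation p of 0.9, two-sided. These intervals cover counting error only and not the spread between animals. Reads made by PCR are not independent molecules, so the intervals may be too narrow even for that.

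The number of published circRNAs with a read was 445, 373 and 446 in the young and 299, 350 and 275 in the adult libraries. Every young library lay above every adult library. To remove the effect of depth, the number expected in a random draw of 10745 reads was computed for each library, and it was 412.6, 357.0 and 388.4 in the young against 289.6, 311.3 and 275 in the adult libraries. At that depth the young mean of 386 ± 27.9 (SD, n = 3) was 1.32 times the adult mean of 292 ± 18.3 (SD, n = 3), with an exact permutation p of 0.1, which is the smallest that 3 against 3 can give, and of 0.2 after adjustment over the 4 comparisons of this kind. The reads per detected published circRNA were 6.13 ± 1.14 (SD, n = 3) in young and 7.46 ± 0.312 (SD, n = 3) in adult libraries, with an exact permutation p of 0.2 and an adjusted one of 0.267.

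**Figure D2:**
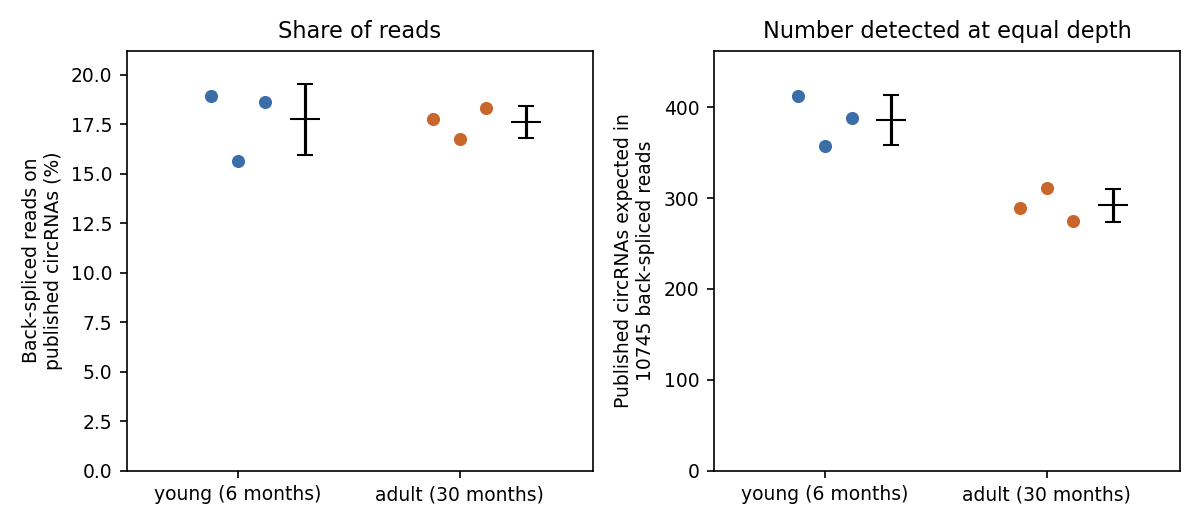
Share of back-spliced reads on published circRNAs (left, %) and number of published circRNAs expected in 10745 back-spliced reads (right), with 1 point per library and the mean ± SD of 3 libraries beside each group. The shares overlap between the ages, while the young libraries hold 357.0 to 412.6 published circRNAs and the adult libraries 275 to 311.3.

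By age, 405 published circRNAs (59.8%) were found in both groups, 201 (29.7%) in young libraries only and 71 (10.5%) in adult libraries only. For new circRNAs the shares were 23.0% in both groups, 48.0% in young and 29.1% in adult libraries only, but 39.3% of new circRNAs had a single read, which cannot fall in both groups, against 12.9% of the published. At 4 to 10 reads, 60.5% of 177 published and 53.2% of 2930 new circRNAs were found in both groups, and at 11 to 30 reads 90.1% of 162 and 87.2% of 889. These shares were not tested. Of the published circRNAs restricted to an age, most rested on 1 library, namely 120 of the 201 and 49 of the 71. Detection in all 3 libraries of one group and in none of the other was seen for 33 young-only and 4 adult-only circRNAs.

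In whole tissue, fewer cells of a type and less RNA per cell cannot be told apart, and markers of several cell types differed between the ages. Of the marker list, only genes that host a circRNA could be matched to mRNA rows by name. Of 7 adipocyte markers 2 were so measured. LPL, the lipase of the capillary wall that frees fatty acids for uptake, was at 184, 57.5 and 331 FPKM in young and 3067, 1981 and 1395 FPKM in adult libraries, and rose (log2 fold change 3.74, limma adjusted p = 0.00943). CIDEC, a lipid droplet protein, was at 439, 191 and 858 FPKM against 911, 829 and 719 FPKM (0.97, adjusted p = 0.219), so adipocyte markers were present in every library and lowest in young replicate 2.

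Of the other marker lists, the endothelial one had 5 of 7 genes measured. Their summed level was 132 to 316 FPKM in young and 331 to 383 FPKM in adult libraries. VWF rose (log2 fold change 1.70, limma adjusted p = 0.0206), while FLT1, KDR, PECAM1 and TEK did not pass the test. The macrophage list (2 of 5 measured) summed to 133 to 190 and 48.1 to 73.6 FPKM. CD163 fell (-2.24, limma adjusted p = 0.00391), while MRC1 did not pass the test. The stromal list (2 of 6) summed to 716 to 1665 and 679 to 1135 FPKM. THY1 fell (-1.63, limma adjusted p = 0.00817), while COL3A1 did not pass the test. The single smooth muscle gene measured of 4, MYH11, was at 40.2 to 130 and 10.1 to 18.6 FPKM and fell, while the single lymphocyte gene of 4, PTPRC, was at 4.28 to 28.7 and 2.43 to 3.54 FPKM and did not pass the test. The skeletal muscle list (2 of 12 measured, LMO7 and RYR1) summed to 5.03 to 15.5 and 7.80 to 18.4 FPKM. LMO7 did not pass the test (log2 fold change 0.42, limma adjusted p = 0.520). RYR1, the calcium release channel of muscle, was under 0.55 FPKM in every library and too low for the test. The marker calls are on the deposited FPKM scale, where 10.6% of all genes and transcripts tested were called higher and 9.31% lower. Falls among host mRNAs depended on that scale, as described below. The part of these cell types in the results on circRNAs was not tested.

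LMO7, an adhesion and actin-linked protein that is abundant in muscle, hosted 2 published circRNAs. They had 6 and 1 reads over the 6 libraries, below the median of 7 for published circRNAs.

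A difference between the ages was tested for each circRNA that was seen in 3 or more libraries. Of the published circRNAs 388 qualified, and they held 94.3% of the published reads, while 289 were too sparse. The 33 young-only and 4 adult-only circRNAs named above are among the 388 and entered through 1 group only. At a limma adjusted p of 0.05, 1 published circRNA was higher and 6 were lower in adult than in young tissue (0.258% and 1.55% of the 388). Over all circRNAs tested these shares were 0.106% and 0.776%. A circRNA that entered through the group where it is high had to differ. The count was therefore also taken over the 351 published circRNAs with reads in both groups, of which 4 were lower (1.14%, against 0.478% of all such circRNAs). Such circRNAs could still enter through the 3 young libraries alone. Of the 120 published circRNAs found in all 6 libraries, which could not, 1 was called higher (0.833%) and none lower. Of the 313 new ones found in all 6, 2 were higher (0.639%) and 3 lower (0.958%). The median log2 fold change was -0.52 over the tested published circRNAs and -0.34 over all tested, with circRNAs that entered through 1 group included. Among those found in all 6 libraries it was -0.127 for the 120 published and 0.125 for the 313 new ones.

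Without any 1 of the young libraries, none of the 7 calls was made, with a smallest limma adjusted p among published circRNAs of 0.0998, 0.0821 and 0.0623 without young replicate 1, 2 and 3 and with 88, 94 and 95 of them at an unadjusted p under 0.05. Without adult replicate 1, 2 or 3, calls were made for 4, 4 and 5, of which 4 belonged to the 7 each time. Over all 2834 circRNAs, none was called without any 1 of the young libraries. Without adult replicate 1, 2 and 3, 10, 14 and 14 of all were lower. With all 6 libraries an unadjusted p under 0.05 was found for 113 of the 388 and 627 of all 2834.

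The largest differences were in circRNAs of ATRX, an X-linked ATP-dependent chromatin remodeller that places histone H3.3 in repeats. ATRX circRNA X:79771563|79786582 had 22, 50 and 43 reads in the young libraries and no read in the adult libraries. This was a mean of 78.8 ± 44.5 scaled reads (SD, n = 3) in young tissue, at least 42.9-fold higher than the limit set by 3 reads over the adult group (limma adjusted p = 0.00415). ATRX circRNA X:79761001|79786582 had 25, 27 and 46 young reads and again none in the adult libraries, at least 34.0-fold higher in the young (adjusted p = 0.00415). Both loops end at the same position, and both entered the test through the young libraries alone.

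The other published loops of the gene were read in adult tissue too. ATRX gave 6 published circRNAs in all, the most of any host together with NAA35, and the remaining 4 did not pass the test, while the difference between loops was not tested. The one with the most reads of these, X:79761001|79827001, had 6, 2 and 3 young and 4, 2 and 0 adult reads (log2 fold change -1.21 ± 0.96 SE, limma adjusted p = 0.558). Summed over the 6, the published loops of ATRX had 66, 85 and 100 reads in young and 5, 11 and 3 reads in adult libraries. The new circRNAs of ATRX had 45, 42 and 35 reads against 15, 9 and 12, so back-splicing of the gene was read in every adult library.

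SMARCA5 encodes the ATPase of the ISWI chromatin remodellers. Its circRNA 17:14553435|14553894, with a span of only 459 bases, had 41, 42 and 60 reads in young and 0, 4 and 2 in adult libraries. The groups were far apart (a log2 fold change of -4.82 ± 0.74 SE with an adjusted p of 0.0219 in limma). It took 79.7% of the back-spliced reads of SMARCA5.

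ZNF423, a zinc finger transcription factor known in the mouse to mark cells committed to the adipocyte lineage, gave the longest of the loops that passed the test, with 49672 bases between its ends. ZNF423 circRNA 18:18284108|18333780 had 32, 18 and 30 young reads. All of its 5 adult reads came from adult replicate 2 (log2 fold change -4.67 ± 0.88 SE, limma adjusted p = 0.0407).

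AIDA encodes an axin-binding protein, and its circRNA 16:26885542|26900286 had 12, 14 and 17 young reads and a single adult read, in replicate 3. The levels were 28.5 ± 6.75 and 0.685 ± 1.19 scaled reads (SD, n = 3) in young and adult tissue. The rate of pooled reads, the sum of a group's reads over the summed depth that the deposited scaling implies for its libraries, was 45.5 times as high in the young, with an exact 95% interval for counting error of 7.75 to 1840 (limma adjusted p = 0.0406). STRN3 encodes a striatin that brings phosphatase PP2A to its targets, and circRNA 21:42012665|42024196 had 16, 10 and 16 young reads and 1 adult read, in replicate 1. The ratio of pooled rates was 44.5 (7.56 to 1799), with an adjusted p of 0.0406. A second published loop of STRN3, 21:42001223|42024196, ended at the same position and had 8, 2 and 6 young reads and no adult read, without passing the test (adjusted p = 0.0829).

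GPCPD1, a phosphodiesterase that cleaves glycerophosphocholine, was the host of the only published circRNA that passed the test as higher in adult tissue. circRNA 13:48112472|48120962 had 11, 17 and 32 young reads and 87, 96 and 59 adult reads. Scaled, these were 37.5 ± 12.6 (SD, n = 3) and 145 ± 23.6 (SD, n = 3), without overlap (log2 fold change 1.97 ± 0.36 SE, limma adjusted p = 0.0407). This call was lost without any 1 of the 6 libraries, with adjusted p between 0.0623 and 0.0998.

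**Figure D3:**
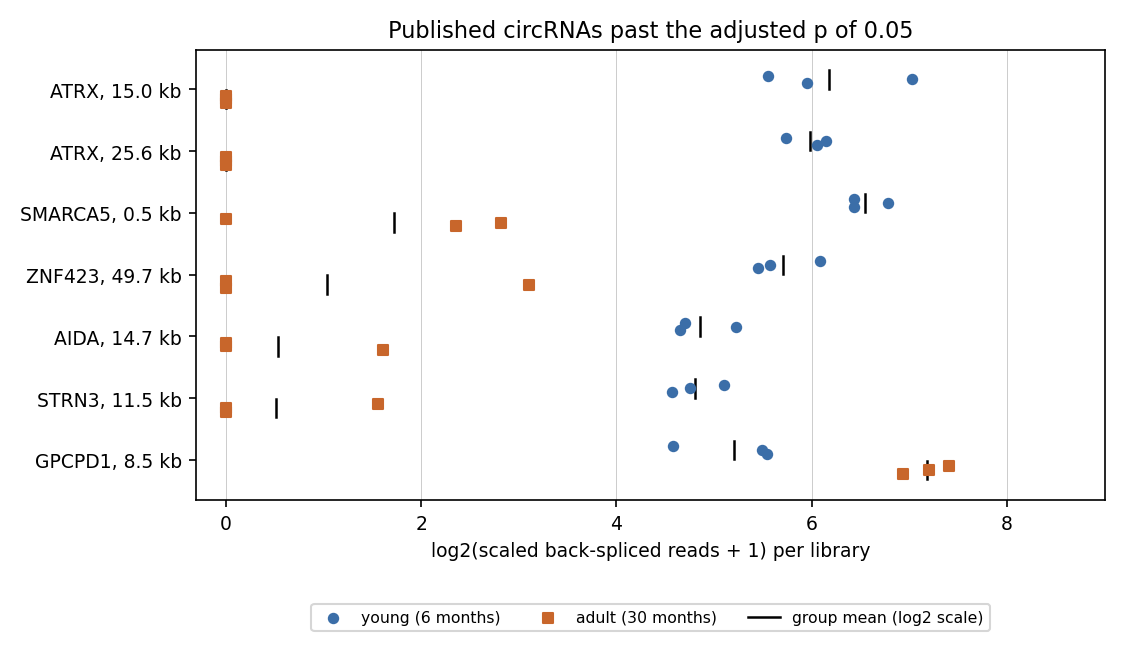
Level of the 7 published circRNAs past the adjusted p of 0.05 in each library, as log2(scaled back-spliced reads + 1), named by host gene and genomic span, with 3 young libraries (circles), 3 adult libraries (squares) and the mean of each group (bar). Both ATRX loops sit at 0 in all adult libraries, and GPCPD1 is the only host whose adult libraries, at 59 to 96 reads, lie above the young ones.

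In a wider set of published circRNAs the ages did not overlap. This was so for 26 that were higher in adult tissue (6.70% of 388, against 6.46% of all circRNAs tested) and for 98 that were higher in young tissue (25.3% against 18.5%), and 1 and 6 of these, respectively, are the ones that passed the test. Among the 120 found in all 6 libraries, which could not enter through 1 group only, there were 14 (11.7%) and 26 (21.7%), against 14.1% and 13.2% of the 433 circRNAs found in all libraries.

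The young-only circRNAs with the most reads after the ATRX pair began with MARK3, a serine/threonine kinase of the microtubule affinity regulating family. MARK3 circRNA 21:69696877|69753491 had 12, 5 and 7 young reads and no adult read (limma adjusted p = 0.0515). ZBTB10 circRNA 14:45838481|45839369, of a zinc finger repressor, had 2, 11 and 11 young reads (adjusted p = 0.0776). SPTBN1 circRNA 11:37216915|37219038, from the gene of a beta spectrin of the membrane skeleton, had 6, 1 and 10 young reads (adjusted p = 0.0897). Neither ZBTB10 nor SPTBN1 had an adult read at these loops.

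Adult-only published circRNAs were thinner. HOMER1 circRNA 10:10426464|10437326, from the gene of a scaffold protein, had 1 and 7 reads in adult replicates 2 and 3. RTN4 circRNA 11:37623524|37626685 had all of its 13 reads in adult replicate 2, and RTN4 encodes a reticulon that shapes the endoplasmic reticulum. USP14, a deubiquitinase of the proteasome, gave 24:35543688|35557349 with 6 and 4 reads in adult replicates 2 and 3. These 3 had too few libraries for the test.

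The other adult-only loops among the 5 with the most reads were read in each adult library. SMAD1, a transducer of bone morphogenetic protein signals, gave 17:12923357|12953417 with 1, 5 and 2 adult reads. NAA35, a subunit of an N-terminal acetyltransferase, gave 8:80567137|80570119 with 3 reads in each. Both had a limma adjusted p of 0.0897 and no young read, a level at least 2.24-fold and 2.71-fold higher in the adult.

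Of the 10 published circRNAs with the most reads, only that of GPCPD1 passed the test, and 6 had levels that overlapped between the ages. ACSS3, a mitochondrial enzyme that activates propionate and other short acids, led with 584 reads on 5:10860435|10879727. Its reads were 29, 3 and 79 in young and 131, 214 and 128 in adult libraries, or 60.2 ± 52.2 against 280 ± 38.4 scaled reads (SD, n = 3). The groups did not overlap and young replicate 2, which also had the lowest LPL and CIDEC levels, was the lowest library (log2 fold change 2.83 ± 0.73 SE, limma adjusted p = 0.0829). ACSS3 mRNA had the same order of the ages, at 51.7, 15.6 and 107 FPKM in young and 198, 200 and 188 FPKM in adult libraries (2.10, adjusted p = 0.0518).

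PICALM, a clathrin assembly protein of endocytosis, followed with 398 reads on 29:9613012|9627685. The reads were 44, 47 and 106 in young and 45, 74 and 82 in adult libraries, and the levels overlapped at 121 ± 29.4 and 123 ± 41.7 scaled reads (SD, n = 3), a log2 fold change of -0.01 ± 0.32 SE. ANGEL2, of the CCR4 family of nucleases, gave a single circRNA, 16:72483781|72487743, with 47, 31 and 41 against 41, 62 and 27 reads and a log2 fold change of -0.05 ± 0.34 SE. For both, the sign of this small difference turned when libraries were scaled to equal totals.

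ARHGAP10 had 24, 39 and 49 young and 50, 89 and 71 adult reads on 17:10295155|10323185 (log2 fold change 0.80 ± 0.34 SE, limma adjusted p = 0.182). HERC4, a HECT ubiquitin ligase, had 33, 10 and 60 against 77, 74 and 40 reads on 28:24662381|24683148 (1.04 ± 0.45 SE, adjusted p = 0.201). RERE, a nuclear receptor coregulator, had 19, 24 and 53 against 31, 39 and 53 reads on 16:45709894|45725185 (0.35 ± 0.39 SE, adjusted p = 0.677). The scaled levels of the ages overlapped in each of these.

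Higher young levels were seen for TANK and PDCD6IP, without a call. TANK encodes an adaptor of the TRAF signalling proteins, and 2:35276763|35300122 had 84, 45 and 69 young and 13, 42 and 21 adult reads (log2 fold change -1.59 ± 0.40 SE, limma adjusted p = 0.0829). PDCD6IP, known as ALIX, works with the ESCRT machinery in membrane scission, and 22:8132547|8140204 had 64, 66 and 55 against 20, 24 and 8 reads (-2.05 ± 0.44 SE, adjusted p = 0.0589). Their groups did not overlap. TPST1, a Golgi enzyme that sulfates tyrosines, had 35, 46 and 46 against 29, 27 and 42 reads on 25:28371055|28372000, and its groups overlapped (-0.50 ± 0.39 SE, adjusted p = 0.554).

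**Figure D4:**
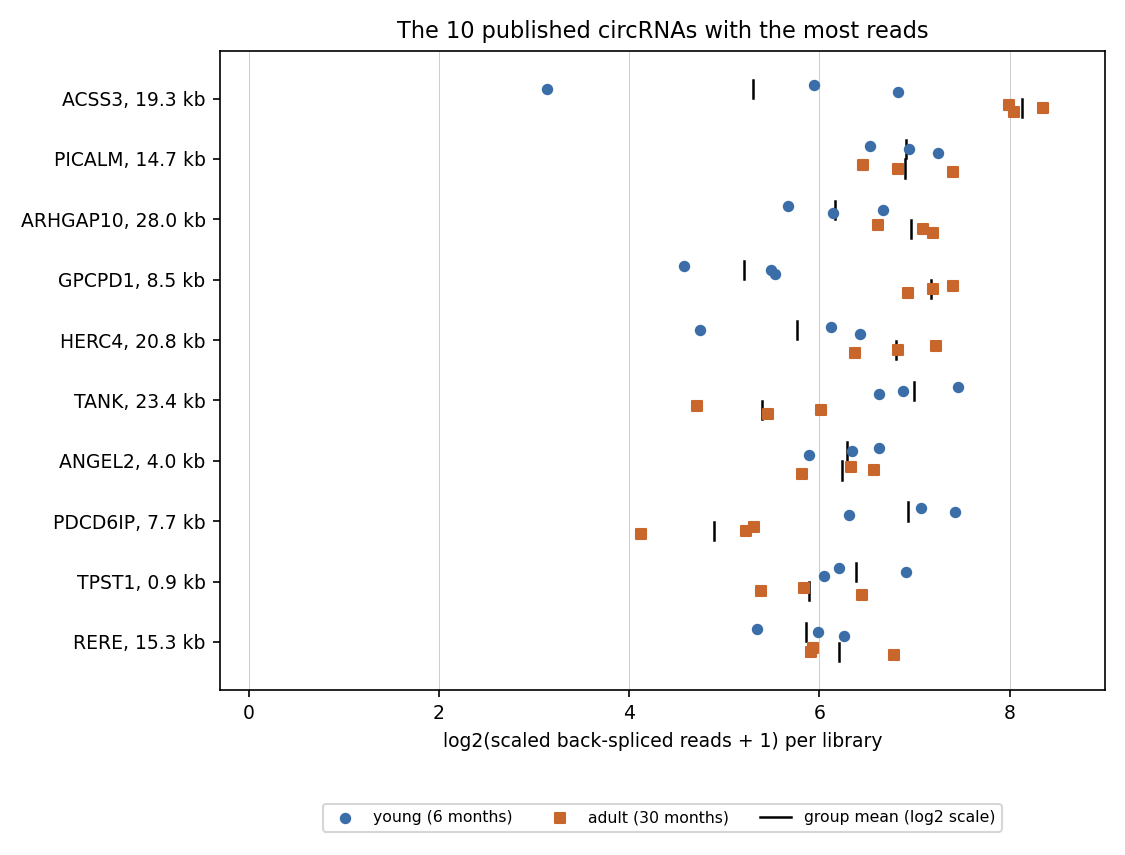
Level of the 10 published circRNAs with the most reads in each library, as log2(scaled back-spliced reads + 1), with 3 young libraries (circles), 3 adult libraries (squares) and the mean of each group (bar). ACSS3 and GPCPD1 lie higher in the adult libraries and TANK and PDCD6IP in the young ones, while the ages overlap for the other 6.

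TXNDC11, an endoplasmic reticulum protein with thioredoxin domains, had a circRNA of moderate depth whose ages were apart. 25:10461217|10480061 had 4, 2 and 6 young and 24, 25 and 18 adult reads, or 7.35 ± 1.88 against 40.5 ± 5.24 scaled reads (SD, n = 3). It held 97.5% of the back-spliced reads of its host and did not pass the test (log2 fold change 2.33 ± 0.52 SE, limma adjusted p = 0.0605).

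Hosts with several published circRNAs often gave loops anchored at one end. All 6 of NAA35 started at 80567137 on chromosome 8 and differed only in their end. Their summed reads were 11, 8 and 16 in young and 26, 23 and 29 in adult libraries, with each adult library above each young one, and no loop passed the test. The most abundant, 8:80567137|80581269, was at 15.6 ± 5.25 and 15.3 ± 10.3 scaled reads in young and adult tissue (SD, n = 3), and 8:80567137|80610031 had 0, 3 and 4 young and 6, 13 and 17 adult reads (limma adjusted p = 0.125). The loops were counted by their own junctions but come from 1 gene in the same libraries, so they are not independent.

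In PICALM, 4 of the 5 published loops shared the start 9613012 on chromosome 29. The 5 summed to 56, 50 and 108 young and 63, 88 and 99 adult reads, and 29:9613012|9627685 held 398 of these 464 reads. SATB1, an organiser of chromatin loops, gave 4 published circRNAs that all ended at 157246201 on chromosome 1, with 66, 28 and 14 young reads against 8, 2 and 8 adult reads. The most abundant of them, 1:157203169|157246201, had 33, 18 and 12 against 2, 1 and 5 reads (log2 fold change -2.92 ± 0.76 SE, limma adjusted p = 0.0829).

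LARP4, an RNA-binding protein that guards poly(A) tails, had 4 published loops with 50 reads in all, or 34.7% of its back-spliced reads. RFWD2, a ubiquitin ligase, had 4 with 36 reads and 31.0%. HSPA4, a chaperone of the Hsp70 group, had 4 with 33 reads and 68.8%. No loop of these 3 hosts passed the test.

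By function of the host, 3 of the 6 published circRNAs that fell belonged to the chromatin and DNA binding list, namely those of ATRX and SMARCA5. The list took in 33 published circRNAs of 19 hosts, of which 20 were tested, none rose, and the median log2 fold change was -1.18 against -0.52 over the tested published circRNAs and -0.34 over all circRNAs tested. The 3 calls come from 2 hosts, and the ATRX pair, which also counts in the median, entered through the young libraries alone. The list was chosen with earlier results of these data known. It left out ZNF423, a zinc finger transcription factor whose loop was also called lower. ATRX gave 6 of the 33, so the members share hosts, and over all circRNAs tested 0.776% were called lower. The RNA binding and splicing list had 20 circRNAs, 14 tested and none called, and a median of -1.22. Its members with values included ZC3H13, a zinc finger protein of the m6A methylation complex, with 8, 6 and 13 young reads and 1 adult read on 12:16136830|16153219 (limma adjusted p = 0.0605), and RBM6, an RNA-binding protein, with 29, 13 and 26 against 11, 17 and 9 reads on 22:50825566|50828527 (-0.93 ± 0.45 SE, adjusted p = 0.264).

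Lists of enzymes and signalling genes had medians nearer to 0 or above it. Of 25 published circRNAs of protein kinases, 17 were tested and none was called, with a median of 0.32. CDK13, a kinase that acts on RNA polymerase II, had 7, 5 and 8 young and 32, 27 and 20 adult reads on 4:81762585|81772269 without overlap (log2 fold change 1.79 ± 0.46 SE, limma adjusted p = 0.0829). MAPK8, the stress kinase JNK1, had 24, 10 and 23 against 16, 34 and 37 reads on 28:43167261|43170732, with overlap (0.50 ± 0.46 SE). Of 23 of the ubiquitin system 16 were tested and none was called (median 0.13), and HUWE1, a HECT ligase, stood apart from that median with 29, 17 and 30 against 0, 2 and 12 reads on X:96388100|96389275 (adjusted p = 0.0897).

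The lipid metabolism list was small, with 9 published circRNAs of 7 hosts that held 6.48% of the published reads. ACSS3 and GPCPD1 circRNAs had 584 and 302 of these 954 reads. Of 5 tested, GPCPD1 rose and none fell, with a median of -0.52. That median was the value of PLCB4 circRNA 13:2282452|2296600, which had only 11 reads. Its mean of scaled reads was higher in adult tissue (4.80 against 2.73), so the median does not describe a fall of the list. Over all circRNAs tested 0.106% were called higher, and the GPCPD1 call was lost without any 1 of the 6 libraries. Membrane traffic had 15, 10 tested and none called (median -0.47), and matrix and adhesion had 9, 4 tested and none called (median -0.13). Among the last, ITGA6, an integrin chain that binds laminin, had 6, 3 and 13 young and 2, 4 and 0 adult reads on 2:24154099|24160709 (limma adjusted p = 0.211).

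The mRNA of the host genes was then compared, to set each loop beside the FPKM of its host. Loops and linear RNA were not separated in these libraries, so the FPKM may include reads from both. Of the 533 hosts 531 had an mRNA level high enough for the test, and 56 rose (10.5%) and 39 fell (7.34%) from young to adult at a limma adjusted p of 0.05. Over all 14988 genes and transcripts tested the shares were 10.6% and 9.31%, and the median log2 fold change was 0.10 over the hosts and 0.01 over all. The 39 depended on the scale of the FPKM, which summed to 1.09e+06 to 1.24e+06 in young and 6.57e+05 to 7.22e+05 in adult libraries. With libraries scaled to equal FPKM totals the median over all shifted to 0.67, 337 hosts were higher and 7 lower, and the 7 were among the 39 while all 56 were among the 337. Over all 14988 genes and transcripts 6595 were then higher and 645 lower. On the deposited scale the 95 calls came to 47 without young replicate 1 and to 24, 20 and 34 without adult replicates 1, 2 and 3. Over all 14988, the higher and lower calls were then 760 and 1044, 507 and 682, 414 and 592, and 750 and 712.

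Hosts whose mRNA fell on either scale included TPM1, a tropomyosin, at 165 ± 14.8 and 21.6 ± 4.86 FPKM (SD, n = 3), and ARGLU1, a modulator of splicing, at 226 ± 17.5 and 31.0 ± 1.75 FPKM (SD, n = 3). USP14 and ATXN10 rose by 1.85 and 2.34 in log2 on the deposited scale and by 2.64 and 3.11 with equal totals. TPM1, ARGLU1 and ATXN10 were named after their values had been seen. ATRX mRNA was at 58.5, 63.1 and 64.5 FPKM in young and 34.8, 33.3 and 36.0 FPKM in adult libraries and fell on the deposited scale (log2 fold change -0.82, limma adjusted p = 0.0172), but not with equal totals (-0.02, adjusted p = 0.911).

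Change in circRNA and change in host mRNA were loosely related. Over the 388 tested published circRNAs Pearson's r of the log2 fold changes was 0.21, and over the 120 found in all libraries it was 0.15, with opposite signs in 55 of them. These are descriptions across circRNAs that share hosts and libraries, and low counts widen the spread of the circRNA values.

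Relative to host mRNA, 13 published circRNAs fell and none rose among the 388 (3.35%), against 1.86% lower and 0.0379% higher over all 2640 circRNAs so tested. An unadjusted p under 0.05 was found for 107 of the 388 and for 534 of all 2640. Of the 13, 8 had no adult read and entered through the young libraries alone. Over the 351 with reads in both groups there were 5 (1.42%), against 0.855% of all such circRNAs. Reads in both groups do not keep a circRNA from entering through the 3 young libraries alone. The 13 were the 6 circRNAs that fell on their own and those of CCSER2, NMT1, RILPL1, MARK3, GTF2I, HSPA4 and CLCN6. Without any 1 of the young libraries none of the 13 was called, with a smallest limma adjusted p of 0.131, 0.127 and 0.0852 and 79, 84 and 86 at an unadjusted p under 0.05. Without adult replicate 1, 2 or 3 there were 7, 6 and 7, and with FPKM scaled to equal totals there were 69 lower and none higher, the 13 among them. Over all 2640 circRNAs, 27, 23 and 27 were lower without adult replicate 1, 2 and 3. With equal totals 378 of all 2640 were lower and 2 higher.

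In 3 of the 13 the host mRNA rose while the loop was found only or almost only in young tissue. AIDA mRNA was at 36.9, 44.0 and 38.1 FPKM in young and 58.2, 66.9 and 63.9 FPKM in adult libraries (log2 fold change 0.66, limma adjusted p = 0.0419), and the loop fell by 4.98 in log2 relative to it (adjusted p = 0.0183). NMT1, which attaches myristate to proteins, had mRNA at 30.4, 22.5 and 40.2 against 70.9, 81.7 and 58.6 FPKM (1.18, adjusted p = 0.0223). Its only circRNA, 19:45387150|45389986, had 5, 1 and 6 young reads and no adult read, and the difference relative to the host was -4.05 ± 0.78 SE (adjusted p = 0.0223).

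CCSER2 circRNA 28:39674653|39712555 had 6, 3 and 3 young reads and no adult read. CCSER2 mRNA rose by 1.15 in log2 (limma adjusted p = 0.00675), and the loop relative to it was at -4.24 ± 0.79 SE (adjusted p = 0.0223). For both ATRX loops, whose host mRNA did not rise, the difference relative to the host was -5.36 ± 0.82 SE and -5.16 ± 0.78 SE (adjusted p = 0.0132 for each). SMARCA5 and ZNF423 loops were at -4.57 ± 0.93 SE (adjusted p = 0.0289) and -4.80 ± 0.88 SE (adjusted p = 0.0223), with host mRNA changes of -0.26 and 0.13 that did not pass the test.

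The GPCPD1 circRNA that rose had a host mRNA at 29.4, 54.3 and 33.3 FPKM in young and 47.2, 23.6 and 26.5 FPKM in adult libraries, with overlap (log2 fold change -0.27, limma adjusted p = 0.584). Relative to it the loop was at 2.25 ± 0.53 SE and just missed the threshold (adjusted p = 0.0540). For ACSS3 the log2 fold changes of loop and mRNA were 2.83 and 2.10, and the difference between them was 0.72 ± 0.65 SE (adjusted p = 0.604).

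**Figure D5:**
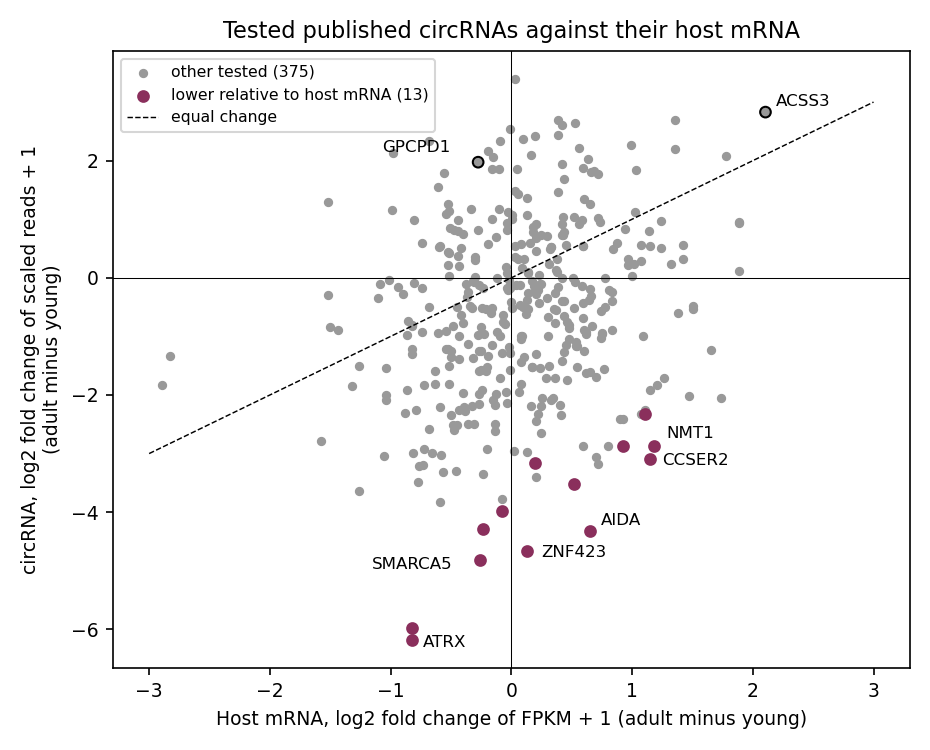
Log2 fold change from young to adult of the 388 tested published circRNAs (vertical, scaled reads + 1) against that of their host mRNA (horizontal, FPKM + 1), with the 13 circRNAs lower relative to host mRNA in purple and the GPCPD1 and ACSS3 loops circled. The 13 lie far below the dashed line of equal change, with ATRX lowest at -6.18 and -5.98 and with AIDA, NMT1 and CCSER2 on the side of higher host mRNA.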

How the data were processed

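Values of 3 young and 3 adult adipose libraries were used as deposited, and reads were not reprocessed. The deposited circRNA values are log2(scaled back-spliced reads + 1), which the authors made by trimming with Trim Galore, aligning to cattle UMD3.1 with STAR and calling junctions with CIRCexplorer2. Every value was a whole multiple of 1 step per library (100%), and reads were recovered by dividing by it. The deposited mRNA values are log2(FPKM + 1) per transcript, and the submitters' processing notes name TopHat2 2.0.14 and Cufflinks. FPKM was summed over the transcripts named as hosts of a gene, so 1 FPKM value per host and library was compared. The depth behind the FPKM of each library was not at hand, and the study reports more clean reads for the young than for the adult group. Columns with the authors' fold changes, p-values and FDR were not used.

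circRNAs seen in 3 or more of the 6 libraries, mRNAs of mean FPKM 0.5 or more, and the difference of circRNA and host mRNA on the log2 scale were each tested over all features in R 4.3.3 by limma 3.58.1 (moderated with a mean trend, Benjamini-Hochberg adjustment, threshold 0.05), adult minus young, both with a pseudocount of 1, which understates changes of low values. Single values per library were compared by two-sided exact permutation tests. A group without a read was given a floor of 3 reads over its 3 libraries. The scripts were tested on simulated data.

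The circRNAs named are the 10 with the most reads, those past the threshold, those in the tables of the study, the 5 young-only and 5 adult-only with the most reads, those of the 5 hosts with the most published circRNAs (7 with ties), up to 4 per gene list and the 5 with the largest change relative to host mRNA. The published circRNAs, lists and rule were chosen with earlier results of these data known. Replicates are separate animals. Alternatives were other pseudocounts, filters, scalings, tests, a replicate block and leaving out each library. Sequences of the loops are not reported here.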

Additional observations from a re-analysis of the deposited data

How the results depend on the processing

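The count of 7 published circRNAs past the adjusted p moved with most settings. It was 2 with a pseudocount of 0.5, 4 with equal totals, 8 with median ratios, 15 without trend, 16 without filter, 21 with a read in at least 5 libraries, 24 with a pseudocount of 4, 26 with a read in at least 2 libraries and 56 with voom, and 0 to 5 when each library was left out in turn. The calls over all circRNAs moved as well. Of 2834, 3 were higher and 22 lower in the reported fit, 20 and 56 with a pseudocount of 4, and 46 and 235 with voom. They were 29 and 36 of 900 with at least 5 libraries, 20 and 70 of 5300 with at least 2, and 13 and 39 of 14990 without filter. Without a filter and with at least 2 libraries the prior degrees of freedom were infinite and 829, against 6.65 in the reported fit, so each circRNA's own spread hardly counted there. With replicate number as a block the published circRNAs called were 35 (prior degrees of freedom 14200), host mRNAs were 27 and circRNAs relative to host 10. Over all 2834 circRNAs that block gave 27 higher and 107 lower. The numbers mark different animals and do not pair them (correlations of same-numbered deviations 0.036, 0.022 and 0.023), though each library correlated best with its own number, which is a hint from the data and not the design. Equal totals moved the median of all circRNAs from -0.34 to -0.21.

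The 95 host mRNAs were 344 with equal FPKM totals and 20 to 103 with a library left out. Over all 14988 genes and transcripts, equal FPKM totals gave 6595 higher and 645 lower. The 13 circRNAs relative to host were 69 with equal FPKM totals and 0 to 7 with a library left out. Over all 2640 circRNAs so tested, equal FPKM totals gave 378 lower and 2 higher. The difference in the share of reads, -0.12 percentage points, was 0.11 over exon circRNAs and -1.16 to 0.48 with a library left out. The log2 fold change of ANGEL2 turned to 0.21 with equal totals and 0.038 with voom (-0.25 to 0.16 with a library left out), and that of PICALM to 0.25 with equal totals (-0.26 to 0.21). Of the alternatives for 34 named results, 318 kept their side of the threshold, 38 passed it, 104 lost it and 9 changed sign. The number of published circRNAs detected kept its direction in all alternatives run. At 10745 to 17680 back-spliced reads per library, 289 of the 677 published circRNAs were in too few libraries for a test.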
